A study of Mus musculus with 2 samples.

Results

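A set of 10 microRNA (miRNA) genes known from neurons and glia was followed in gastrocnemius, the large calf muscle, in B6CASTF1/J mice, an F1 hybrid. The mice were adult females, and their age was 18 to 20 months. The set holds 8 neuronal genes (Mir137, Mir7b, Mir383, Mir129-2, Mir384, Mir488, Mir153 and Mir873a) and 2 glial genes (Mir338 and Mir219a-2), out of 2202 miRNA genes in the count files. The members were chosen by gene name, with earlier results of these libraries known, among them the large differences between libraries of Mir7b, Mir129-2 and Mir219a-2. Levels and differences of the members are therefore a description, and no p-value was taken from them. The study has 1 group of 2 small RNA libraries, numbered by the labels as biological replicates 1 and 2. No treatment, transgene or other genotype is named, and the labels give a single donor entry for both but separate entries for the tissue samples. Whether 2 animals were used is not settled by these labels, so the spread between the libraries may be technical.

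MiRNAs are short RNAs cut from hairpin precursors, and each pairs with messenger RNAs mainly through its seed, bases 2 to 8 from its 5′ end. Skeletal muscle holds no neuronal cell bodies, but motor and sensory axons, their endings and Schwann cells, the glia of peripheral nerves, run through it. Mir338 and Mir219a-2 are best known from oligodendrocytes, the myelinating glia of the brain, where they promote maturation, and Mir338 is also known from Schwann cells and axons. Mir137, Mir7b and Mir129-2 are known from brain neurons, where Mir137 takes part in neuronal maturation and the Mir7 family is prominent in neuroendocrine cells.

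The files assign 865419 reads of replicate 1 and 2177048 reads of replicate 2 to miRNA genes on the sense strand. A level is given as CPM, a share of these gene counts scaled to 1000000, in which 1 read is worth 1.16 CPM in replicate 1 and 0.459 CPM in replicate 2. A count of 0 is taken by convention as up to 3 counts, or 3.47 CPM and 1.38 CPM. Intervals in parentheses are exact 95% intervals (Poisson for a level, Clopper-Pearson for a ratio). They rest on the counts of 1 library, or of 1 library per side, and cover counting error only. The reads carry no molecular identifiers, so even this error can be understated. Mean levels carry the SD over both libraries (n = 2). Among counted reads, the miRNAs of striated muscle, led by Mir206, summed to 4.07% and 10.4% of gene counts. The muscle label thus has its markers in both libraries.

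The mature sequences show which members a read can identify. RefSeq's table for GRCm38.p6, the assembly also called mm10, lists 17 mature sequences for 9 of the members and none for Mir383. For Mir219a-2 it lists miR-219a-5p only and no 3p arm. Counts are per gene, so the arm that a counted read came from is not known. Selected arms of members and paralogues are shown next, with the seed in capitals.
Mir338, miR-338-3p: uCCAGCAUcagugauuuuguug
Mir219a-2 and Mir219a-1, miR-219a-5p: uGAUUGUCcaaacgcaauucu
Mir137, miR-137-3p: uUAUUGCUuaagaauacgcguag
Mir7b, miR-7b-5p: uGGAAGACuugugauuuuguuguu
Mir7-1 and Mir7-2, miR-7a-5p: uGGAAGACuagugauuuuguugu
Mir129-2 and Mir129-1, miR-129-5p: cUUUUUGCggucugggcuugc
Mir129-2, miR-129-2-3p: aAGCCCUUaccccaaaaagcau
Mir384, miR-384-5p: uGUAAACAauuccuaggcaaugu
Mir153, miR-153-3p: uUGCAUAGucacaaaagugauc
Mir488, miR-488-3p: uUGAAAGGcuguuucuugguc
Mir873a, miR-873a-5p: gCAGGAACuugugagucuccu

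Among the listed arms no 2 members share a seed, since the 17 sequences carry 17 distinct seeds. Mir383 could not be compared. Of these sequences, 15 occur in the hairpin of 1 counted gene only. The other 2 are miR-129-5p, which lies whole in both Mir129-2 and Mir129-1, and miR-219a-5p, which lies whole in both Mir219a-2 and Mir219a-1. A read of either arm alone maps to 2 loci, and multimapping reads enter no gene count, so the counts of these 4 genes are lower bounds. The shared stretch is 26 bases between Mir129-2 and Mir129-1 and 22 bases between Mir219a-2 and Mir219a-1, and for the other 8 members the longest stretch shared with any counted hairpin at another locus is 10 to 15 bases. For Mir7b the longest is 14 bases, with Mir7-1. The arms miR-7a-5p and miR-7b-5p have the same seed and differ by A10U, counted from the 5′ end of miR-7a-5p, and by the length of 24 against 23 bases. The seed of miR-384-5p is also that of 4 genes of the Mir30 family in the table, Mir30a, Mir30c-1, Mir30c-2 and Mir30e. Together these reached 44544 CPM in replicate 1 and 30765 CPM in replicate 2, against 2.31 and 5.97 CPM for Mir384. Mir30b (551 and 539 CPM) and Mir30d (10478 and 8455 CPM) are counted too but are not among the matches in that table. The sum therefore covers the named genes only and can be too low for the seed.

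Of the members, 4 lie in introns of genes known from nervous tissue. The coordinates are those of mm10 with the GENCODE annotation M21. Mir338 (ENSMUSG00000065600.1, chromosome 11, 120014765 to 120014862, minus strand) lies in an intron of Aatk, a kinase gene of neural tissue. Mir153 (ENSMUSG00000065538.1, chromosome 12, 117250817 to 117250885, plus strand) lies in an intron of Ptprn2, which encodes a protein of secretory vesicles. Mir488 (ENSMUSG00000070103.2, chromosome 1, 158505625 to 158505733, plus strand) lies in an intron of Astn1, a gene of neuronal migration. Mir873a (ENSMUSG00000078057.1, chromosome 4, 36668510 to 36668586, minus strand) lies in an intron of Lingo2.

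The other hosts are of other kinds. Mir383 (ENSMUSG00000065457.3, chromosome 8, 38252133 to 38252202, minus strand) lies in an intron of Sgcz, which encodes a sarcoglycan, a membrane protein family of muscle. Mir137 (ENSMUSG00000065569.2, chromosome 3, 118433857 to 118433929, plus strand) lies in an exon of the noncoding gene Gm26871. Mir129-2 (ENSMUSG00000065511.1, chromosome 2, 94241364 to 94241453, minus strand) lies in an intron of the noncoding gene Mir670hg. Mir7b (ENSMUSG00000065491.1, chromosome 17, 56242988 to 56243098, plus strand), Mir384 (ENSMUSG00000065499.1, chromosome X, 105344282 to 105344369, minus strand) and Mir219a-2 (ENSMUSG00000065485.1, chromosome 2, 29845631 to 29845727, minus strand) lie in no annotated host on their own strand.

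An annotated miRNA gene faces 4 members on the opposite strand, so their counts exist only where strand is used. Mir3065 faces Mir338, Mir219b faces Mir219a-2, Mir129b faces Mir129-2 and Mir873b faces Mir873a. In the column that ignores strand, all 4 members are at 0 in both libraries, since their reads cannot be assigned to either gene. In the sense column the opposite genes were nearly empty. Mir3065 had 0 and 3 counts, Mir219b had 1 and 1, and Mir129b and Mir873b had 0 in both.

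Glial Mir338 was the most abundant member in both libraries. It had 485 counts in replicate 1, or 560 CPM (512 to 613), and 1685 counts in replicate 2, or 774 CPM (737 to 812), with a mean of 667 ± 151 CPM. That places it at rank 73 of all miRNA genes in replicate 1 and rank 67 in replicate 2. Mir338 alone made up 88.2% of the reads of all 10 members in replicate 1 and 72.9% in replicate 2. Every other member stood below it in both libraries by a margin beyond counting error.

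Mir219a-2, the other glial gene, was near the limit of detection in replicate 1. It had 2 counts there, or 2.31 CPM (0.280 to 8.35), and 76 counts in replicate 2, or 34.9 CPM (27.5 to 43.7). Its mean of 18.6 ± 23.1 CPM therefore stands for no level seen in either library. Mir219a-2 made up 0.411% of the reads of both glial genes in replicate 1 and 4.32% in replicate 2. The glial genes together summed to 563 CPM in replicate 1 and 809 CPM in replicate 2.

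Mir137 led the neuronal members in both libraries. It had 48 counts in replicate 1, or 55.5 CPM (40.9 to 73.5), and 246 in replicate 2, or 113 CPM (99.3 to 128), with a mean of 84.2 ± 40.7 CPM. Mir383, known from brain and testis, had 8 counts, or 9.24 CPM (3.99 to 18.2), and 75 counts, or 34.5 CPM (27.1 to 43.2). For both genes the level in replicate 2 lay above the interval of replicate 1. The 8 neuronal genes together summed to 72.8 CPM in replicate 1 and 253 CPM in replicate 2, which is 0.00728% and 0.0253% of gene counts.

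Mir7b and Mir129-2 were at 2 counts each in replicate 1, the same count as Mir219a-2. In replicate 2, Mir7b had 123 counts, or 56.5 CPM (47.0 to 67.4), and Mir129-2 had 68 counts, or 31.2 CPM (24.3 to 39.6). Mir7b was thus the second neuronal member in replicate 2. In replicate 1, by overlapping intervals, it could not be told from Mir383, Mir384, Mir129-2 or the undetected genes. In bulk tissue, a difference in the number of cells of a type and a difference in RNA per cell cannot be told apart.

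The other neuronal members were rare in both libraries. Mir384, a brain miRNA of the X chromosome, had 2 counts in replicate 1 and 13 in replicate 2, or 2.31 and 5.97 CPM. Mir153 had 0 and 10 counts, and its level in replicate 2 was 4.59 CPM (2.20 to 8.45). Mir488 had 1 and 9 counts, and Mir873a had 0 and 6. At the level of replicate 2, replicate 1 would hold 2.39 reads of Mir873a and 3.98 of Mir153, so their absence there was not detectable as a difference at this depth.

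**Figure D1:**
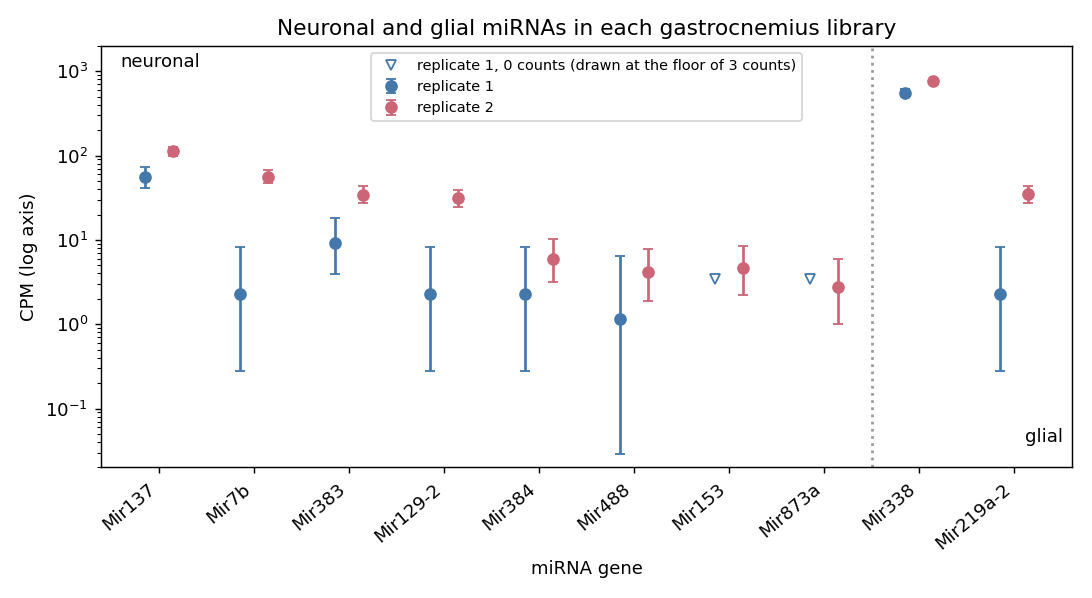
The vertical axis gives CPM on a log scale for each member in both libraries, bars are exact 95% Poisson intervals, and open triangles mark 0 counts at the floor of 3 counts. Mir338 stands above all other members in both libraries, at 560 and 774 CPM, and Mir7b, Mir129-2 and Mir219a-2 stand at 2.31 CPM in replicate 1 and between 31.2 and 56.5 CPM in replicate 2.

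By mean level the members ran from Mir338 through Mir137, Mir7b, Mir383, Mir219a-2, Mir129-2, Mir384, Mir488 and Mir153 to Mir873a. Only the first steps of this order hold in both libraries. Mir137 lay below Mir338 and above Mir383 in each, with intervals that did not overlap. From Mir7b to Mir129-2 no order was settled in replicate 1, where Mir7b, Mir219a-2 and Mir129-2 tied and their interval overlapped that of Mir383. In replicate 2 the intervals of Mir383, Mir219a-2 and Mir129-2 overlapped. Mir384, Mir488, Mir153 and Mir873a had overlapping intervals in replicate 2 and could not be ordered. Reads of different miRNAs enter a library with unequal efficiency, so an order between genes is one of reads.

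The libraries differed in the members by amounts from close to none to over an order of magnitude. The ratio of CPM in replicate 2 to that in replicate 1 was 24.4 for Mir7b (6.63 to 204), 15.1 for Mir219a-2 (4.04 to 127) and 13.5 for Mir129-2 (3.60 to 114). These genes had the third, the sixth and the seventh largest ratio among the 305 genes tested, which are those whose counts averaged 10 or more. They were chosen with these ratios known and passed that filter through replicate 2, so nothing is read from these ranks. The ratio was 3.73 for Mir383 (1.80 to 8.95), 2.04 for Mir137 (1.49 to 2.84) and 1.38 for Mir338 (1.25 to 1.53). At the CPM of replicate 2, replicate 1 would hold 48.9 reads of Mir7b, 30.2 of Mir219a-2 and 27.0 of Mir129-2, where 2 of each were counted.

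Mir338 had the ratio of a typical gene. The median of the 305 tested genes was 1.35-fold, a log2 ratio of 0.43, and lies within the interval of Mir338. This shift of all genes depends on the scaling, and the median log2 ratio was 0.15 with edgeR's TMM and 0.02 with DESeq2 size factors. The ratio of Mir219a-2 was 10.9 times that of Mir338 (conditional interval 2.90 to 92.2), but Mir219a-2 was chosen with its large ratio known. Among the members with a ratio, Mir338 had the narrowest interval.

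**Figure D2:**
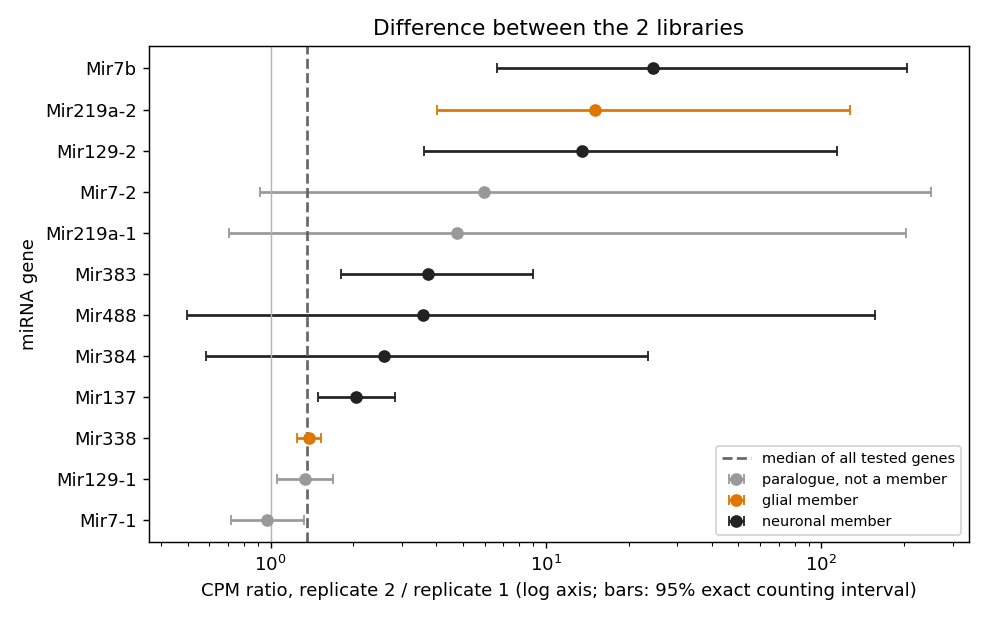
The horizontal axis gives the CPM ratio of replicate 2 to replicate 1 on a log scale for members and paralogues with counts in both libraries, with exact 95% counting intervals. Mir7b, Mir219a-2 and Mir129-2 lie to the right of the dashed median of all tested genes (1.35), Mir338 and Mir129-1 lie beside that line, and Mir7-1 lies to the left of it at 0.972.

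Counted by a ratio of at least 2, the members lay on the side of replicate 2. Of the 6 members that passed this filter, 5 were at least 2-fold higher in replicate 2, all but Mir338, and 0 were at least 2-fold higher in replicate 1. Of all 305 tested genes, 93 (30.5%) were at least 2-fold higher in replicate 2 and 22 (7.21%) in replicate 1. The members were chosen with this ratio known, and Mir7b, Mir129-2, Mir219a-2 and Mir383 had under 10 counts in replicate 1 and passed the filter through replicate 2, so nothing is read from their count. Mir137 is close to the threshold and dropped below 2 with TMM, with DESeq2 size factors and with the most abundant gene left out of the totals. The share of replicate 2 among all genes past the threshold went from 80.9% to 70.1% with TMM and 62.3% with DESeq2 size factors. With the totals of all reads in each file it was 94.2%, with 146 genes at least 2-fold higher in replicate 2 and 9 in replicate 1.

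With no filter, all 10 members can be counted. Then 7 of 10 were at least 2-fold higher in replicate 2, with Mir384 at a ratio of 2.58 (0.585 to 23.6) and Mir488 at 3.58 (0.496 to 157) added, both with intervals that include 1. Mir338 was not at least 2-fold higher. Mir153 and Mir873a had 0 counts in replicate 1, and with 0 entered as 3 counts their ratios were at least 1.33 and 0.795. Their exact intervals start lower, at 0.891 and 0.468. Whether they reach 2-fold, or differ from 1, is therefore not settled. No member was at least 2-fold higher in replicate 1. Of all 606 genes with a count in either library, 19.6% were at least 2-fold higher in replicate 2 and 9.90% in replicate 1. Counts were present in both libraries for 8 of the members and in replicate 2 for all 10, beside 422 and 572 of all 2202 genes.

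**Figure D3:**
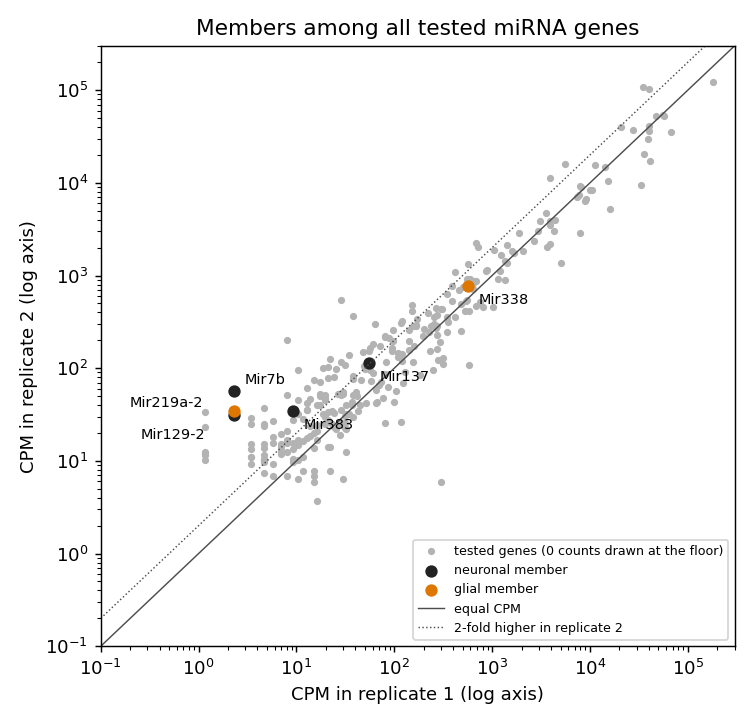
Each point is 1 of 305 tested miRNA genes by its CPM in replicate 1 and replicate 2, both on log axes, with the 6 tested members named. Mir7b, Mir219a-2 and Mir129-2 lie far above the dotted 2-fold line, Mir383 and Mir137 lie closer to it, and Mir338 lies between that line and the line of equal CPM.

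Paralogues of the members allowed a comparison of loci that make the same or nearly the same miRNA. Mir129-1, which shares miR-129-5p with Mir129-2, had 95 counts in replicate 1 and 318 in replicate 2, or 110 and 146 CPM, a ratio of 1.33 (1.05 to 1.69). Mir129-2 supplied 2.06% of the reads of this pair in replicate 1 and 17.6% in replicate 2, and its ratio was 10.1 times that of Mir129-1 (2.61 to 86.9). Mir129-2 was chosen with its large ratio known, so its comparison with Mir129-1 is a description only. Both genes can lose reads of the shared arm to the multimapping tally, which held 80.7% and 71.0% of all reads, and its part in this difference was not tested.

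Mir7-1 was the steadier gene of the Mir7 family. It had 63 counts in replicate 1 and 154 in replicate 2, or 72.8 and 70.7 CPM, a ratio of 0.972 (0.720 to 1.32). Mir7-2 had 1 and 15 counts, with a ratio of 5.96 (0.917 to 251). Mir7b supplied 3.08% of the reads of Mir7b and Mir7-1 together in replicate 1 and 44.4% in replicate 2, and its ratio was 25.0 times that of Mir7-1 (6.41 to 215). Mir7b too was chosen with its large ratio known, so nothing is read from the size of this difference. The other genes with the seed of miR-7b-5p, Mir7-1 and Mir7-2, summed to 74.0 CPM in replicate 1 and 77.6 CPM in replicate 2. The miR-7a-5p arm lies whole in both Mir7-1 and Mir7-2, so their counts are lower bounds too.

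Mir219a-1 was rare in both libraries. It had 1 and 12 counts, a ratio of 4.77 (0.706 to 204), and Mir219a-2 had most reads of the pair in replicate 2, at 86.4%. The ratios of these 2 loci could not be told apart at this depth, since one was 3.11 times the other with an interval of 0.0496 to 64.2.

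A further list of 20 neuronal miRNA genes, which shares no gene with the members, held higher totals than the neuronal members. It summed to 1027 CPM in replicate 1 and 1744 CPM in replicate 2 and was led by Mir128-1, which is known from brain but also present in muscle, at 558 and 908 CPM. Mir132, a miRNA induced by neuronal activity, followed at 171 and 341 CPM. The classical neuronal miRNAs were at or near 0. All 3 Mir124a genes and Mir9-2 had 0 counts in both libraries, Mir9-1 had 0 and 2, and Mir9-3 had 1 and 3, but their copies share mature arms, and multimapping reads are not counted. The motor neuron genes Mir218-1 and Mir218-2 had 1 count each in replicate 1, and 2 and 13 counts in replicate 2. They are copies as well.

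Of these 20 genes, 9 passed the filter, and 5 of the 9 were at least 2-fold higher in replicate 2 and 0 in replicate 1, beside 30.5% and 7.21% of all tested genes. These were Mir128-2 at a ratio of 3.15 (2.27 to 4.47), Mir134 at 2.78 (1.47 to 5.81), Mir138-1 at 2.20 (1.58 to 3.13), Mir138-2 at 2.43 (1.45 to 4.33) and Mir1298 at 9.94 (1.63 to 408). Mir1298 (1 and 25 counts) and Mir212 (6 and 28 counts) passed the filter through replicate 2 alone. Mir128-1 and Mir128-2 are copies, as are Mir138-1 and Mir138-2, and multimapping reads are not counted. Their levels and ratios are therefore those of the counted reads only. Mir128-1 and Mir132, at ratios of 1.63 (1.47 to 1.80) and just under 2.00 (1.67 to 2.40), did not reach the threshold, nor did Mir212 at 1.86 (0.754 to 5.48). Mir708 went the other way at 0.751 (0.607 to 0.932). The median ratio of the 9 genes was 2.20 beside 1.35 over all tested genes. This list was also chosen with earlier results of these data known, so its count and median are a description only.

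Lists that mark other cells and tissues also differed between the libraries. Mir122 of liver had 9 and 207 counts, and the slow fibre genes Mir208b and Mir499 summed to 181 and 956 CPM. The ratio was 9.14 for Mir122 (4.72 to 20.3) and 5.27 for the slow fibre sum (4.48 to 6.24), beside 3.47 for the sum of the neuronal members (2.67 to 4.58). That last sum holds Mir7b and Mir129-2, chosen with their large differences known, so its size beside the other lists is a description only. Of 5 tested epithelial genes, 4 were at least 2-fold higher in replicate 2 and 1 in replicate 1, beside 30.5% and 7.21% of all tested genes. These 4 genes (Mir200b, Mir200c, Mir205 and Mir429) had under 10 counts in replicate 1 and passed the filter through replicate 2, and the 7 genes of the list summed to 342 and 270 CPM. Striated muscle genes summed to 40744 and 103535 CPM, almost all of it Mir206 at 40388 and 103232 CPM. Mir1a-2 stood at 270.4 and 162 CPM and Mir1a-1 at 25.4 and 22.0 CPM. The Mir1a genes are copies, as are the Mir133a genes, and multimapping reads are not counted. Their counts are therefore lower bounds, and the lead of Mir206 is one of counted reads only. Fibroblast genes summed to 633 and 1383 CPM, led by Mir214 at a ratio of 2.37, while Mir199b stood at 0.822 and Mir199a-2 at 0.398.

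The sums of vessel and blood lists differed less between the libraries or the other way. Endothelial Mir126a stood at 47279 and 52968 CPM, and erythroid genes summed to 230 and 316 CPM. Leukocyte genes summed to 4442 and 4930 CPM, but single genes went apart, with Mir155 at a ratio of 1.48, Mir223 at 0.440 and Mir142 at 0.390. Smooth muscle genes were lower in replicate 2, at 75404 and 37985 CPM. The glial sum had a ratio of 1.44 (1.30 to 1.59), beside 1.37 for the erythroid sum (1.17 to 1.62). Whether the makeup of the dissected tissue had a part in the members' differences was not tested.

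**Figure D4:**
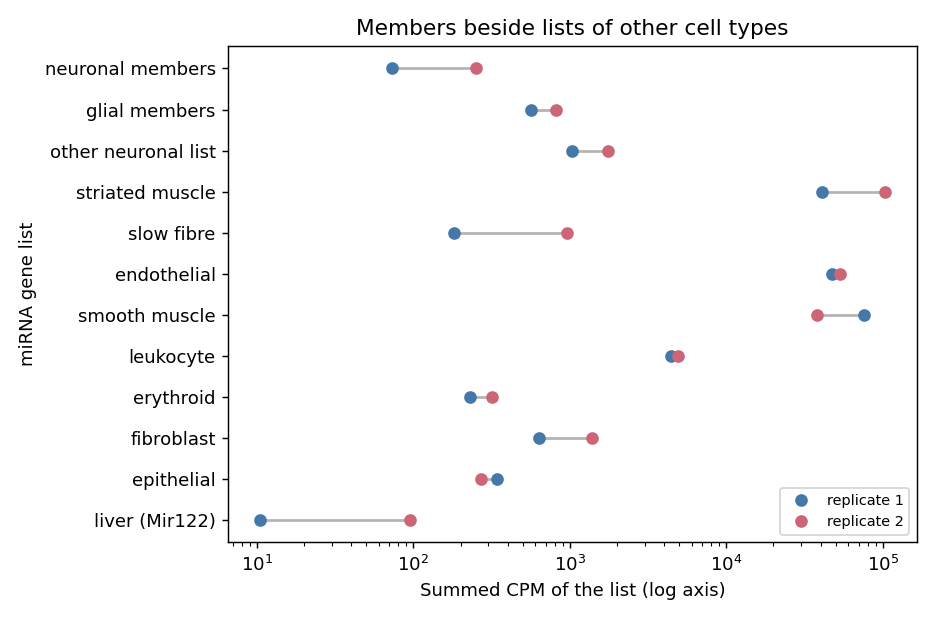
Summed CPM of each miRNA list is drawn on a log axis for replicate 1 and replicate 2, joined by a line. Neuronal members (72.8 and 253 CPM), slow fibre genes (181 and 956 CPM) and Mir122 (10.4 and 95.1 CPM) show the widest gaps, and the endothelial and leukocyte lists show the narrowest. The neuronal sum holds Mir7b and Mir129-2, chosen with their large differences known, so its place among the lists is not a result.

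The genes nearest to the leading members in both libraries were not all neural. Nearness was taken as the distance between log2(CPM + 1) values over the 2 libraries. For Mir338 they were Mirlet7c-2 (577 and 748 CPM), Mir411 (552 and 727 CPM) and Mir3102 (508 and 751 CPM), at distances of 0.06 to 0.15. For Mir137 they were Mir138-1 (48.5 and 107 CPM), Mir700 (56.6 and 96.5 CPM) and Mir148a (49.7 and 96.9 CPM), at distances of 0.21 to 0.27. With 2 libraries this likeness is one of levels only.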

How the data were processed

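The authors deposited raw read counts per miRNA gene, 1 file per library, with 4 tallies before 2202 genes in 3 unnamed columns. Per the deposited README they refer to mm10 and GENCODE M21. Aligner, counter and trimming: not given in the sources used here. The columns were read as unstranded, sense and antisense from their values, and the sense column was used. Tallies, 87.4% and 81.9% of the reads of replicates 1 and 2, stayed out of the totals. All 2202 identifiers matched the annotation.

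CPM is a count over the sum of gene counts of its library, times 1000000. A ratio is replicate 2 over replicate 1, with 0 entered at 3 counts only where the other count exceeds 3. Genes whose counts averaged 10 or more were compared with a ratio of 2. The fold rule and interval were tested on simulated counts. The members, the lists and the rule for named genes were chosen with earlier results of these data known. That rule takes all members, their paralogues and opposite-strand genes, the 20 other neuronal genes and the 3 nearest genes of the leading neuronal and glial member. The Mir7a genes were matched as Mir7-1 and Mir7-2 through their RefSeq arms. Comparisons between paralogues use conditional odds ratios. Tools were Python 3.11.15, SciPy 1.17.1, pandas 2.3.3, R 4.3.3, edgeR 4.0.16 and DESeq2 1.42.0, the last 2 only for the alternative scalings. Signal tracks and alignments were not analysed here.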

Additional observations from a re-analysis of the deposited data

How the results depend on the processing

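The direction of every member with a ratio held under all scalings tried (TMM, DESeq2 size factors, the top gene left out, all reads as totals) and with a pseudocount of 1 CPM. The column that ignores strand left 2 of 3 tested members at least 2-fold higher in replicate 2, beside 27.7% of all tested genes in that column. It left 5 members with counts in both libraries and a glial sum of 0 CPM. Requiring 3 counts in each library left 3 members detected in both, and a ratio of at least 3 left 50 of all tested genes higher in replicate 2. With all reads as totals, the mean glial sum was 109 CPM and the neuronal sum 27.5 CPM. At a ratio of at least 3, 4 of 6 tested members were higher in replicate 2, beside 16.4% of all tested genes. Leaving out either library gives the other library's level and no ratio: the mean for Mir7b went from 29.4 CPM to 2.31 or 56.5 CPM, and the neuronal sum from 163 CPM to 72.8 or 253 CPM. The log2 ratio of Mir338 was 0.05 with DESeq2 size factors and 1.00 with all reads as totals. Counts of 0 to 2 in replicate 1 limit all ratios of the rare members.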

Other observations

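The pattern of Mir7b, Mir219a-2 and Mir129-2 was also seen in genes that are not members. Chosen after the values were seen, a rule of at most 3 counts in replicate 1 and at least 50 in replicate 2 was met by 7 of 2202 genes. The rule follows the counts of these 3 members, so nothing is read from how few genes met it. Besides these 3 members they were Mir208a of heart muscle (1 and 74 counts), epithelial Mir429 (1 and 51), Mir543 of the imprinted cluster on chromosome 12 (0 and 55) and Mir760 (3 and 63). Mir370 and Mir208b had ratios of 25.2 and 18.7 but did not meet the rule, at 8.09 and 28.9 CPM in replicate 1.

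Annotated miRNA neighbours of 3 members, picked from the annotation after the values were seen, were rare or undetected. Mir670, 19847 bases from Mir129-2, and Mir876, 23057 bases from Mir873a, had 0 counts in both libraries. Mir325, 34713 bases from Mir384, had 3 counts in replicate 1 and 6 in replicate 2, where Mir384 had 2 and 13.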
